A study of Mus musculus with 7 samples.

Results

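Interferon-induced genes were followed in the lens epithelium of SPARC knock-out (KO) and wild-type (WT) mice. SPARC is a secreted matricellular protein that binds collagen of the lens capsule. The 9 genes considered were Ifitm1, Ifitm2, Ifitm3, B2m, Irf1, Irf9, Tap1, Isg15 and Bst2, chosen by function around Ifitm3, which was itself selected on its higher values in KO lenses. They were found as every probe set whose platform annotation gave one of these symbols alone, which held for 12 of 45037 probe sets and for 8 of the 9 genes. Isg15, a ubiquitin-like modifier, had no such probe set, since its 1 probe set is also paired with another gene, and no value is given for it. The KO and WT comparison chose the genes through Ifitm3, so values of these genes in that comparison are a description and were not tested.

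Interferons are secreted proteins that bind receptors on the cell surface and signal through JAK kinases and STAT transcription factors. The STAT factors, partly together with Irf9, bind short promoter elements and switch on a broad set of antiviral and antigen presentation genes. Many of these genes also have a basal level in cells that have met no virus, and the lens epithelium, which lies behind the blood-aqueous barrier, is an epithelium with no vessels of its own.

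The KO lenses came from SPARC-null mice on a C57Bl/6 background (4 lenses: 1L and 1R of animal 1, 4L and 7L) and the WT lenses from wild-type mice on the same background (3 lenses: 2L, 5L and 6L). All 6 animals were littermates aged 28 days, and KO animal 7 was male while the other 5 were female. Epithelium was taken from stained cryosections by laser capture, and RNA went through 2 rounds of amplification, with 1 Affymetrix mouse array for each lens. The 2 lenses of animal 1 were averaged, so n = 3 animals in each group, while values by lens are given as deposited signals. Group means and differences are on the normalized log2 scale, log2(signal + 16) after quantile normalization, and differences are KO minus WT.

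Sparc itself was read first, and its brightest probe set had signals of 8.14 to 70.5 in the KO lenses, against 27371 to 49972 in the WT lenses, as labelled. The labels do not say which exons the null allele lacks. Each array had a mean signal of 500.003 or 500.004 after trimming 2% at each end. The WT lens 2L stood apart in RNA quality, with a Gapdh 3' over 5' signal ratio of 3.75 where the other 6 lenses had 9.06 to 15.9. This ratio averaged 11.6 ± 2.38 in KO animals and 9.57 ± 6.09 in WT animals (n = 3, ± SD, two-sided exact permutation p = 0.7, with 0.1 the smallest p possible). Lens epithelium markers differed in level. The brightest was Cryab, a small heat shock crystallin, at 38805 to 51883 in KO lenses and 28252 to 48160 in WT lenses. Foxe3 was weak, at 11.5 to 84.1 in KO lenses and 40.2 to 118 in WT lenses. Markers of other tissues were present too, and the rod gene Sag had 11460 to 15772 in KO lenses and 9383 to 16936 in WT lenses. In captured tissue fewer cells of a type and less RNA per cell cannot be told apart. Background was gauged from 27 probe sets for bacterial transcripts, whose highest signal was 45.5.

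Of the 12 probe sets, 6 had higher and 6 lower values in KO, where 48.4% of all 45037 probe sets were higher. At 1 probe set, that of Ifitm3, all KO lenses lay above all WT lenses, which held for 2.56% of all probe sets. At 0 of the 12 did all KO lenses lie below all WT lenses, against 2.76% of all probe sets. Nothing is read from these counts, because the comparison chose the genes. At the brightest probe set of each of the 8 genes the median difference was 0.15 on the log2 scale, against -0.01 over all probe sets.

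**Figure D1:**
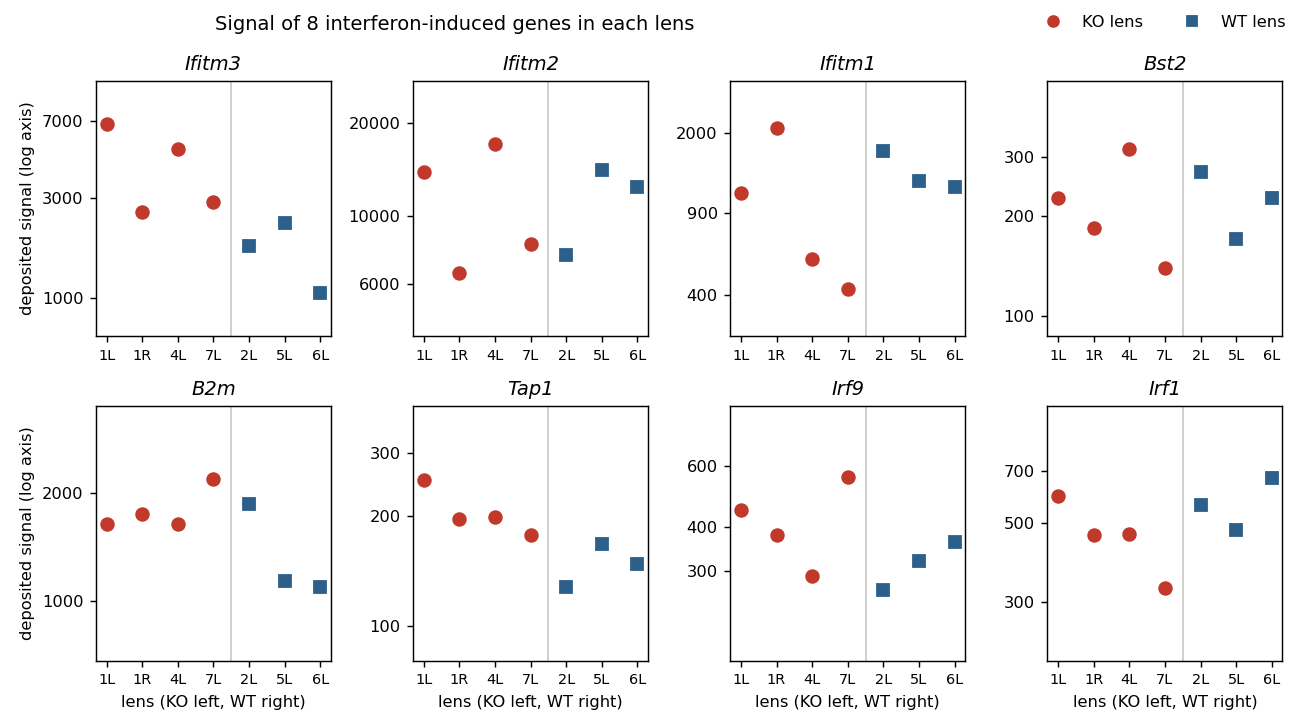
Deposited signal (log axis, with its own range in each panel) of the brightest probe set of 8 genes in the 4 KO lenses (red circles) and the 3 WT lenses (blue squares), 1 array per lens. Ifitm3 and Tap1 are the genes whose KO points all lie above their WT points on this scale, while Ifitm1 is spread from 425 to 2101 within KO.

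The Ifitm proteins are small membrane proteins that hinder the entry of enveloped viruses at the cell surface and in endosomes. Ifitm1, Ifitm2 and Ifitm3 are neighbours on chromosome 7, and their 250 bases before the start of transcription are printed because these 3 close relatives had unlike values in the same lenses. The sequences are from RefSeq on GRCm38.p6, as chr7:141010745-141010994 on the minus strand for Ifitm3, chr7:140955962-140956211 on the minus strand for Ifitm2 and chr7:140967826-140968075 on the plus strand for Ifitm1. Capitals mark matches to the core of the interferon-stimulated response element (GAAA, any 2 bases, then GAAA), or to TTCNNNGAA, the gamma-activated site that STAT dimers bind, each searched on both strands.
Ifitm3: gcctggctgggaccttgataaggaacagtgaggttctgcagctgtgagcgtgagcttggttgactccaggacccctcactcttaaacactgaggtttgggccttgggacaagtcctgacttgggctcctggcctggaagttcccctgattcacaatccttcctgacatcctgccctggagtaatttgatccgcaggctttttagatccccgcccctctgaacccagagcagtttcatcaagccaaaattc
Ifitm2: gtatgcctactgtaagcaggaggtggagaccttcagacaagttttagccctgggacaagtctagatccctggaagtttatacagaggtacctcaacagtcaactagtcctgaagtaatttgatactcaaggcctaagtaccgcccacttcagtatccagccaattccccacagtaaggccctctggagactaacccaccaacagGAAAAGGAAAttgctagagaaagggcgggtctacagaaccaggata
Ifitm1: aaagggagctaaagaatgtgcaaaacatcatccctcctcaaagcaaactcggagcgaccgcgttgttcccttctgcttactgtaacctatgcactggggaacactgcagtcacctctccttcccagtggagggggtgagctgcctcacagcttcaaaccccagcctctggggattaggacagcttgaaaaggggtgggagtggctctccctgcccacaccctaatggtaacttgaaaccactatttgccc

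Ifitm2 held the match GAAAAGGAAA, which begins 46 bases before the start, and the printed windows of Ifitm3 and Ifitm1 held neither motif. Of 32851 RefSeq promoter windows of the same length, 2.98% held the response element core and 7.02% held TTCNNNGAA. Among the 9 genes, 4 held the first (B2m, Bst2, Ifitm2 and Isg15) and 2 the second (Bst2 and Irf1). A match is a description of letters only and says nothing of binding in the lens.

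Ifitm3, which restricts virus entry from endosomes, had signals at probe set 1423754_at of 6818 (1L), 2589 (1R), 5130 (4L) and 2861 (7L) in the KO lenses, against 1762 (2L), 2286 (5L) and 1050 (6L) in the WT lenses. The groups did not overlap, but the lowest KO lens, 1R, lay close to the highest WT lens, 5L, with 0.22 between them on the normalized log2 scale. On that scale Ifitm3 averaged 11.94 ± 0.41 in KO animals and 10.66 ± 0.53 in WT animals (n = 3, ± SD), a difference of 1.28 (SE 0.30) or 2.42-fold. This is the value that chose the genes, and it has no test here. The 2 lenses of KO animal 1 differed from each other by 1.34 on the log2 scale, more than the KO and WT means did.

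Ifitm2, its close relative, had signals at probe set 1417460_at of 13830 (1L), 6494 (1R), 17090 (4L) and 8055 (7L) in the KO lenses, against 7463 (2L), 14096 (5L) and 12405 (6L) in the WT lenses. The groups overlapped throughout, and the means on the normalized log2 scale were 13.39 ± 0.43 in KO animals and 13.42 ± 0.30 in WT animals (n = 3, ± SD). The difference of -0.02 (SE 0.26) was far smaller than the spread between animals. Within the KO group Ifitm2 and Ifitm3 had the same split, with 1L and 4L high and 1R and 7L low for both. Probe sequences were not used here, and whether transcripts of one of these relatives add to the signal of another was not tested.

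Ifitm1, which acts mostly at the cell surface, had signals at probe set 1424254_at of 1098 (1L), 2101 (1R), 571 (4L) and 425 (7L) in the KO lenses, against 1669 (2L), 1243 (5L) and 1169 (6L) in the WT lenses. The lenses 1L, 4L and 7L lay below all WT lenses and 1R lay above them. The mean was 9.53 ± 0.96 in KO animals and 10.40 ± 0.22 in WT animals (n = 3, ± SD) on the normalized log2 scale, a difference of -0.87 (SE 0.41). It was -1.40 without KO animal 1 and -0.48 without KO animal 7, the male. Lenses 1L and 1R differed by -0.92, with 1R the higher, opposite to the order of Ifitm3 and Ifitm2 in the same animal.

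The other Ifitm family genes were weak. Ifitm5, known from bone, was no brighter than the top bacterial control in any of the 7 lenses. Ifitm6 was under that control in 3 of 4 KO and 3 of 3 WT lenses, with signals of 7.09 to 48.2 in KO lenses and 4.25 to 5.96 in WT lenses. Ifitm7 had 68.1 to 130 in KO lenses and 58.7 to 77.7 in WT lenses (a log2 difference of 0.54, SE 0.35), and Ifitm10 had 42.9 to 86.4 in KO lenses and 57.8 to 147 in WT lenses (-0.80, SE 0.41). By limma 0 of these 4 genes passed the adjusted p over all probe sets, and 1, Ifitm6, had an unadjusted p under 0.05. Of all probe sets, 0.00666% passed the adjusted p and 4.06% had an unadjusted p under 0.05.

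**Figure D2:**
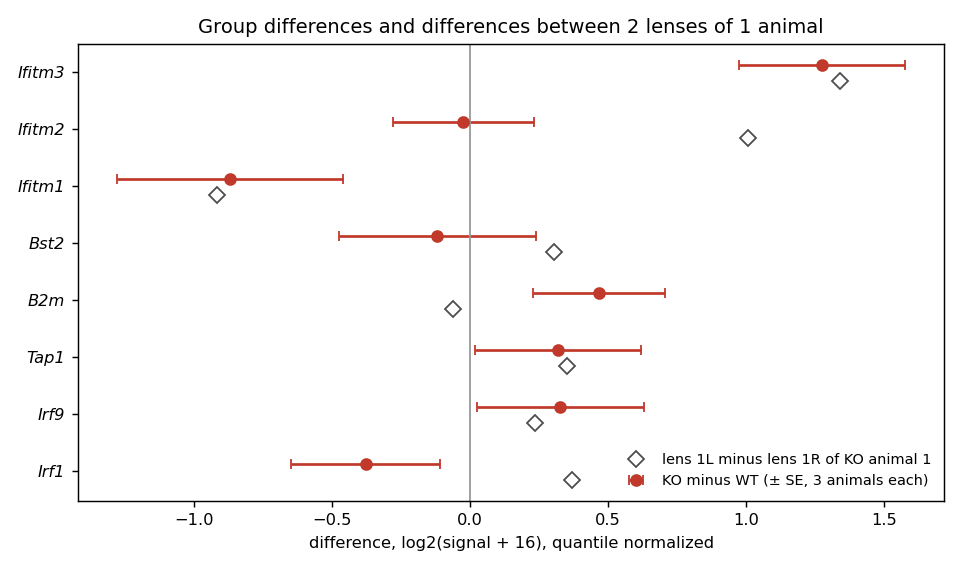
KO minus WT difference (red, bars are the SE of the fit, 3 animals in each group) and the difference between the 2 lenses of KO animal 1 (open diamonds, 1 array each, no error), both on the normalized log2(signal + 16) scale. For Ifitm3 and Ifitm1 both quantities are similar in size, 1.28 and 1.34 for Ifitm3 and -0.87 and -0.92 for Ifitm1.

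Bst2, or tetherin, holds budding virions at the cell membrane. Its promoter window and that of B2m are shown as the measured genes besides Ifitm2 that held the response element core. They are taken from RefSeq on GRCm38.p6 at chr8:71537473-71537722 on the minus strand for Bst2 and chr2:122147437-122147686 on the plus strand for B2m, with capitals as above.
Bst2: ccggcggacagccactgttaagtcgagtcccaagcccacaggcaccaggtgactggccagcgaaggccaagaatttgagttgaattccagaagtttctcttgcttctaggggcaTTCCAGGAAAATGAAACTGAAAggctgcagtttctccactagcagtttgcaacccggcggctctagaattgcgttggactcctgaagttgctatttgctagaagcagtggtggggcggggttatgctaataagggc
B2m: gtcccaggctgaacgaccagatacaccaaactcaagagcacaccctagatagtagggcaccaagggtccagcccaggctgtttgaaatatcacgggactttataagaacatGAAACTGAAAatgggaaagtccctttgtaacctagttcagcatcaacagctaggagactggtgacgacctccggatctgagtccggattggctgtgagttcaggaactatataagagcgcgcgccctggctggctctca

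In Bst2 the gamma-activated site match TTCCAGGAA overlaps the response element match GAAAATGAAA, which overlaps a further one, GAAACTGAAA. The same letters, GAAACTGAAA, begin 139 bases before the start of B2m. Bst2 had signals at probe set 1424921_at of 227 (1L), 183 (1R), 318 (4L) and 139 (7L) in the KO lenses, against 270 (2L), 171 (5L) and 226 (6L) in the WT lenses. The KO lenses held both the highest and the lowest value. The log2 difference of -0.12 (SE 0.36) lay within the spread between animals (SD 0.59 in KO and 0.24 in WT, n = 3). It turned to 0.15 without KO animal 7, the male, and was -0.43 without KO animal 4, -0.26 without WT animal 5 and -0.02 without WT animal 2.

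The antigen presentation genes B2m and Tap1 had somewhat higher values in KO. B2m, beta-2-microglobulin, is the light chain of all class I molecules, and its brightest probe set, 1449289_a_at, had signals of 1641 (1L), 1749 (1R), 1637 (4L) and 2189 (7L) in the KO lenses, against 1869 (2L), 1138 (5L) and 1095 (6L) in the WT lenses. The WT lens 2L lay among the KO lenses and the other WT lenses below them. Means were 10.86 ± 0.20 in KO animals and 10.39 ± 0.38 in WT animals (n = 3, ± SD), a log2 difference of 0.47 (SE 0.24). With 1 animal left out at a time it ran from 0.35, without KO animal 7 or WT animal 6, to 0.68, without WT animal 2. The other B2m probe set differed by 0.28 (SE 0.32), with 906 to 1297 in KO lenses and 527 to 1439 in WT lenses.

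Tap1, a subunit of the transporter that loads peptides onto class I molecules, had signals of 253 (1L), 197 (1R), 199 (4L) and 178 (7L) in the KO lenses, against 128 (2L), 168 (5L) and 147 (6L) in the WT lenses at its brightest probe set, 1416016_at. All KO lenses lay above all WT lenses as deposited, but after quantile normalization WT lens 5L lay above KO lens 7L by 0.06 on the log2 scale. Means were 7.73 ± 0.14 in KO animals and 7.41 ± 0.22 in WT animals (n = 3, ± SD), a log2 difference of 0.32 (SE 0.30), and 0.21 without WT animal 2. The other 3 Tap1 probe sets were no brighter than the top bacterial control in any lens, with the exception of 1R at one of them, and their differences of -0.29 to 0.32 are not resolved from background.

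The interferon regulatory factors Irf9 and Irf1 lay in opposite directions, each by about as much as its spread between animals. Irf9, the DNA-binding partner of STAT proteins in the type I response, had signals at probe set 1421322_a_at of 449 (1L), 380 (1R), 290 (4L) and 559 (7L) in the KO lenses, against 264 (2L), 320 (5L) and 363 (6L) in the WT lenses. The KO lens 4L lay among the WT lenses as deposited, and after quantile normalization 1R did too. Means were 8.72 ± 0.43 in KO animals and 8.39 ± 0.29 in WT animals (n = 3, ± SD), a log2 difference of 0.33 (SE 0.30). It was 0.11 without KO animal 7, the male, 0.17 without WT animal 2 and 0.54 without KO animal 4. Irf1, which activates class I genes, had signals at probe set 1448436_a_at of 598 (1L), 462 (1R), 466 (4L) and 327 (7L) in the KO lenses, against 564 (2L), 478 (5L) and 669 (6L) in the WT lenses. Lens 1L lay between the WT lenses as deposited, and the other KO lenses lay below them. Means were 8.81 ± 0.36 in KO animals and 9.19 ± 0.25 in WT animals (n = 3, ± SD), a log2 difference of -0.38 (SE 0.27), which was -0.18 without KO animal 7 and -0.24 without WT animal 6. The first RefSeq promoter window of Irf1 held the gamma-activated site match TTCCCCGAA, which begins 90 bases before the start.

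The 2 lenses of KO animal 1 differed from each other by more than the KO and WT means did at 5 of the 8 genes. This sets single arrays against means over animals, so the count is not read as particular to these genes. Medians were taken over the 23129 probe sets brighter than the top bacterial control in every one of the 7 lenses. There the median absolute difference between the KO and WT means was 0.18 on the log2 scale. The median absolute difference between the 2 lenses of KO animal 1 was larger, at 0.41. Ifitm3 (1.34), Ifitm2 (1.01) and Ifitm1 (-0.92) lay beyond that median, and B2m (-0.06), Irf9 (0.23), Bst2 (0.30), Tap1 (0.35) and Irf1 (0.37) did not.

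Other interferon genes were taken from 8 lists, of which 87 genes were measured by a probe set with 1 symbol. Of these, 45 were at higher values in KO and 42 at lower ones, and the median log2 difference was 0.02. By limma 0 of 87 had an adjusted p (Benjamini-Hochberg over all probe sets) under 0.05, as 0.00666% of all probe sets did. In simulated data of this design 4.4% of 2-fold and 51.6% of 4-fold changes passed that adjusted p. A gene that did not pass may thus still differ. An unadjusted p under 0.05 was found for 5 genes higher and 1 lower in KO, against 4.06% of all probe sets in both directions. At 4 of the 87 all KO lenses lay above all WT lenses and at 0 all lay below them, against the 2.56% and 2.76% of all probe sets.

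Of the ligands, Ifna2, Ifna4 and Ifng were no brighter than the top bacterial control in any of the 7 lenses. Ifnb1 had 18.4 to 59.2 in KO lenses and 25.4 to 36.0 in WT lenses, at or under that control in 2 of 4 KO and 3 of 3 WT lenses. Ifna1, the brightest of the 5 ligands measured, had 30.5 to 86.6 in KO lenses and 8.55 to 104 in WT lenses (a log2 difference of 0.09, SE 0.60), at or under that control in 1 of 4 KO and 1 of 3 WT lenses. Of 10 receptor and JAK-STAT genes, the adjusted p in limma passed for 0 and the unadjusted p was under 0.05 for 0, against 0.00666% and 4.06% of all probe sets. Ifngr1, a chain of the interferon gamma receptor, had 471 to 736 in KO lenses and 478 to 678 in WT lenses (a log2 difference of -0.05, SE 0.23). Il10rb, a shared chain of the interferon lambda receptor, had 220 to 323 in KO lenses and 96.2 to 259 in WT lenses (0.56, SE 0.37). Irf7, which amplifies type I interferon production, had 80.8 to 160 in KO lenses and 133 to 245 in WT lenses (-0.85, SE 0.36, limma adjusted p = 0.99988), and was the 1 gene of the lists with a lower value and an unadjusted p under 0.05. Irf8, a factor of myeloid cells, had 194 to 450 in KO lenses and 162 to 268 in WT lenses (0.57, SE 0.30).

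Of 35 other antiviral genes, 17 were at higher values in KO and 18 at lower ones, and the median log2 difference was -0.01. Gbp2, an interferon-induced GTPase, had signals of 277 to 422 in KO lenses and 148 to 195 in WT lenses (a log2 difference of 0.87, SE 0.28, limma adjusted p = 0.99988). Samhd1, which depletes nucleotides, had 338 to 405 in KO lenses and 214 to 237 in WT lenses (0.64, SE 0.25, limma adjusted p = 0.99988). The lenses of the groups did not overlap for these 2 of the 35 genes, where all KO lenses lay above all WT lenses at 2.56% of all probe sets. They were named because they had the smallest unadjusted p of the 35, so the lack of overlap follows in part from that choice. Isg20, an exonuclease, had 16.8 to 131 in KO lenses and 4.04 to 29.5 in WT lenses, and lay no brighter than the top bacterial control in 2 of 4 KO and 3 of 3 WT lenses.

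Of 15 class I presentation genes, 10 had higher and 5 lower values, with a median log2 difference of 0.08. The class I heavy chains H2-K1 and H2-D1 differed by -0.26 (SE 0.23) and 0.17 (SE 0.21), with H2-K1 at 1348 to 1997 in KO lenses and 1495 to 2287 in WT lenses and H2-D1 at 780 to 1164 in KO lenses and 837 to 1153 in WT lenses. All 6 class II genes measured had lower values in KO, with a median of -0.26. In limma 0 of 6 were past an adjusted or unadjusted p of 0.05, against 0.00666% and 4.06% of all probe sets. H2-Aa, a class II chain, had 178 to 748 in KO lenses and 216 to 964 in WT lenses. Among 6 feedback inhibitors Socs3, which is induced by STAT3 signalling, differed by 2.88 (SE 0.40, limma adjusted p = 0.263), with 1869 to 3634 in KO lenses and 198 to 597 in WT lenses. Socs1, the main inhibitor of interferon gamma signalling, was no brighter than the top bacterial control in any of the 7 lenses.

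**Figure D3:**
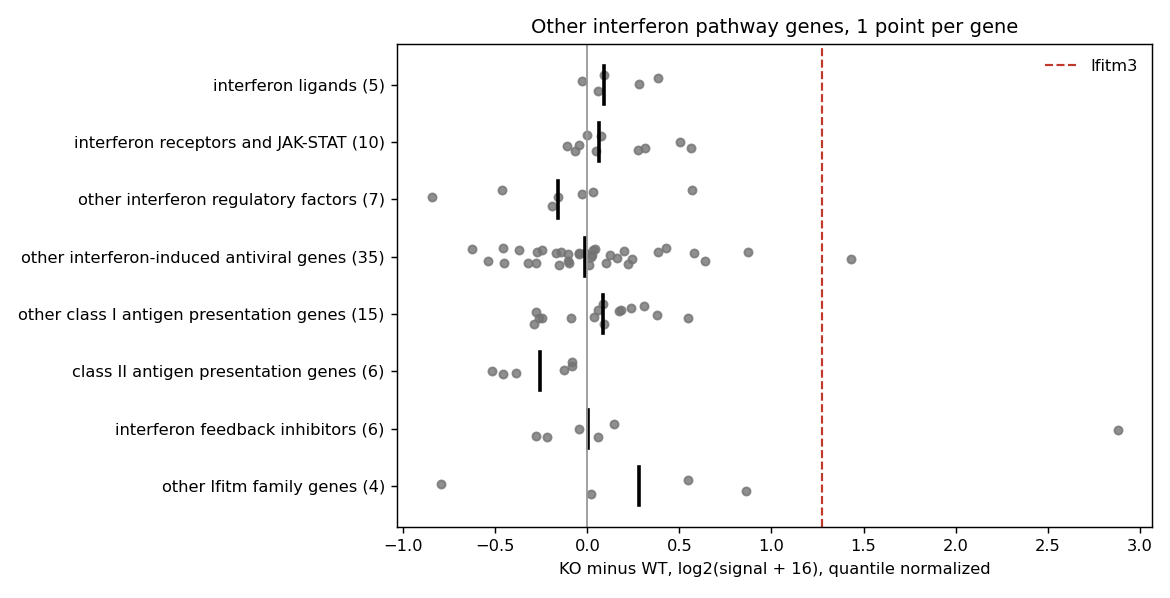
KO minus WT difference on the normalized log2(signal + 16) scale for each measured gene of 8 interferon lists (grey points, number of genes in brackets), with the median of each list as a black bar and the value of Ifitm3, 1.28, as a dashed line. The medians lie between -0.26 and 0.28, and the points beyond the dashed line are Isg20 and Socs3.

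The pattern of Ifitm3 over the 7 lenses was closest, among 19428 probe sets above the median level with 1 symbol, to that of Cdh22, a cadherin (Pearson r = 0.99), Stat3, the transcription factor downstream of gp130 receptors (0.98), Rbm14 (0.98), Anxa7, an annexin (0.97), and Sfxn5 (0.97). These are the highest of many correlations over 7 lenses of 6 animals, the step between KO and WT adds to them, and they are given as a description. Stat3 had signals of 2099 (1L), 1433 (1R), 1899 (4L) and 1642 (7L) in the KO lenses, against 1369 (2L), 1250 (5L) and 1025 (6L) in the WT lenses. As for Ifitm3, 1L and 4L were the highest lenses and 6L the lowest. Its log2 difference was 0.54 (SE 0.20), which has no test here because the gene was found through Ifitm3.

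Markers of other cell types were read in the same lenses. By limma 0 of 69 marker genes in 7 lists passed the adjusted p, as 0.00666% of all probe sets did. In the same fit 11 higher and 6 lower ones had an unadjusted p under 0.05. This is a larger share than the 4.06% of all probe sets in both directions. Of 18 macrophage and leukocyte markers 14 had higher and 4 lower values in KO. Their summed signal was 3741 to 5983 in KO lenses and 2770 to 3495 in WT lenses, with no overlap. Lyz1 and Csf1r make up most of this sum, and 7 of the 18 were brighter than the top bacterial control in all lenses. Cd68 and Adgre1 had log2 differences of 0.07 (SE 0.36) and 0.03 (SE 0.33). Cd68 was at or under that control in 2 of 4 KO and 2 of 3 WT lenses. The complement genes C1qa, C1qb and C1qc had larger differences, of 1.61 (SE 0.46), 1.18 (SE 0.46) and 0.88 (SE 0.43). Each had a limma adjusted p of 0.99988, and C1qa was at or under that control in 2 of 3 WT lenses. Csf1r, the receptor of macrophage growth factor, had 868 to 1445 in KO lenses and 361 to 886 in WT lenses, and Aif1 and Cd3e were no brighter than the top bacterial control in any of the 7 lenses. The summed signal was 4419 in lens 1L, which had the highest Ifitm3, and 5786 in lens 7L, whose Ifitm3 was lower than that of 1L and 4L. Of 10 endothelium and blood markers all 10 had higher values in KO, with sums of 1268 to 1574 in KO lenses and 644 to 1084 in WT lenses. Of these, 4 were brighter than the top bacterial control in all lenses, and Pecam1 and Hba-a1 were no brighter than it in any lens. The part of these cells in the Ifitm3 values was not tested.

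All 7 surface epithelium markers, keratins and others of cornea and conjunctiva, had lower values in KO. Their summed signal was 7885 (1L), 15574 (1R), 7921 (4L) and 1458 (7L) in the KO lenses, against 17126 (2L), 10272 (5L) and 11870 (6L) in the WT lenses. The KO lens with the highest sum, 1R, was the one with the highest Ifitm1, and the lens with the lowest sum, 7L, the one with the lowest. Krt5, a keratin of basal cells, had 93.7 to 1350 in KO lenses and 1104 to 2054 in WT lenses, and each marker of this list was brighter than the top bacterial control in at least 1 lens. The part of surface epithelium in the Ifitm1 values was not tested.

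Sums of the remaining lists overlapped between the groups. They were 15602 to 43667 in KO lenses and 8321 to 24470 in WT lenses for 8 pigment epithelium and melanocyte markers, 51081 to 71275 in KO lenses and 38929 to 65993 in WT lenses for 8 retinal markers, and 30839 to 43998 in KO lenses and 30369 to 51304 in WT lenses for 8 stromal markers. For 10 lens epithelium markers they were 122607 to 149823 in KO lenses and 88196 to 151081 in WT lenses. The lowest of these sums of deposited signals, 88196, was that of lens 2L. Its Cryab signal of 28252 became 15.44 on the normalized log2 scale, where the KO lenses ran from 15.26 to 15.47. Values were higher in KO for 6 of the 8 pigment, 5 of the 8 retinal, 3 of the 8 stromal and 6 of the 10 lens markers.

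Rod genes make up most of the retinal sum, so the glial genes of that list are also given one by one, a choice made after their values were seen. Gfap, an intermediate filament of astrocytes and reactive Müller glia, had signals of 5004 (1L), 3858 (1R), 7081 (4L) and 3912 (7L) in the KO lenses, against 1095 (2L), 2213 (5L) and 2432 (6L) in the WT lenses. All KO lenses lay above all WT lenses, with 4L and 1L the highest, as for Ifitm3, and the log2 difference was 1.47 (SE 0.33, limma adjusted p = 0.99988). The WT lenses had another order, with Gfap lowest in 2L and highest in 6L, where Ifitm3 was lowest in 6L and highest in 5L. Glul, the glutamine synthetase of Müller glia, had 4233 to 7936 in KO lenses and 2755 to 4920 in WT lenses (0.69, SE 0.29, limma adjusted p = 0.99988). Aqp4, a water channel of glia, had 992 to 2203 in KO lenses and 1216 to 1545 in WT lenses (0.31, SE 0.23). The part of glia in the Ifitm3 values, and in those of Stat3 and Socs3, was not tested.

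**Figure D4:**
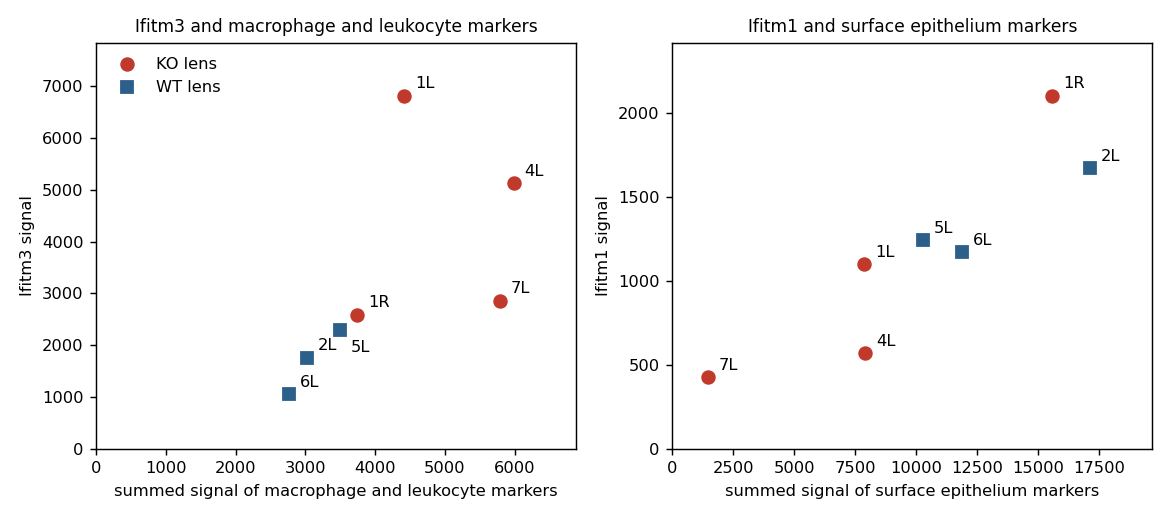
Left, deposited signal of Ifitm3 against the summed signal of 18 macrophage and leukocyte markers, and right, that of Ifitm1 against the summed signal of 7 surface epithelium markers, for the 4 KO lenses (red circles) and 3 WT lenses (blue squares), linear axes. All 4 KO lenses lie above all WT lenses in both measures in the left panel, with 1R closest to them, and 7L is lowest in both measures in the right panel.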

How the data were processed

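The authors deposited linear intensity values, 1 summary signal per probe set and array, scaled to an equal trimmed mean as tested on the table. For the summary software and genome build, neither is stated in the labels or the table. Precision is limited by the number of arrays.

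After 64 control probe sets had been set aside, log2(signal + 16) was quantile normalized, so that a log2 difference understates the change of weak probe sets. The lenses of KO animal 1 were averaged. The fit of KO against WT animals used limma 3.58.1 under R 4.3.3 (lmFit, then eBayes with trend). Its two-sided p-values were adjusted by Benjamini-Hochberg over 45037 probe sets, at a threshold of 0.05. The code was tested on simulated data. Names came from the platform annotation.

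The genes and lists were chosen with earlier results of these data known. A gene is described at its brightest probe set. From each pathway list the 3 genes with the smallest p were eligible, with H2-K1, H2-D1 and Ifngr1, and from each marker list the 3 brightest, of which the text gives some. Ifna1, Ifna2, Ifitm5, Socs1 and markers under the control are named to show levels. Gfap, Glul, Aqp4, Foxe3, Cd68, Adgre1, C1qa, C1qb and C1qc were added after their values were seen. The 5 genes most like Ifitm3 were taken by Pearson r. Alternatives covered the unit of replication, normalization, filter, pseudocount, variance model and each animal left out.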

Additional observations from a re-analysis of the deposited data

How the results depend on the processing

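Over 17 alternatives the log2 difference of Ifitm3 stayed positive, at 1.00 to 1.52, which is also its range when each animal was left out in turn. It was 1.05 with only the right lens of KO animal 1, and with only the left lens it lay above the 1.28 of both averaged. Ifitm1 stayed negative (-1.40 without KO animal 1, -0.48 without KO animal 7 and -0.36 with array weights), and B2m, Irf9 and Tap1 stayed positive and Irf1 negative. Ifitm2 changed sign in 5 alternatives (-0.27 to 0.14), as did the median of the other interferon genes in 5 of 18 (-0.05 to 0.07), and Bst2 in 1 (0.15 without KO animal 7). Irf9 ranged from 0.11 to 0.54, Irf1 from -0.51 to -0.18 and B2m from 0.35 to 0.68 when animals were left out. The mean of all Tap1 probe sets gave 0.05, because 3 of the 4 lie at background. By limma 0 of the 87 other genes passed in the alternatives that tested them all, and 0 of the 74 left by the filter on low values, and 2 or 3 of all probe sets passed. Of the 12 probe sets, those higher in KO numbered 6 to 8 (8 without KO animal 1 or KO animal 7), and 5 of the 9 left by the filter. A random block for the animal was not run, because no correlation could be estimated from 1 pair of lenses, and a block with a correlation set to 0.5, chosen after seeing the data, gave 1.29 for Ifitm3. No paired analysis was possible because the groups share no animal numbers.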
